A study of Danio rerio with 6 samples.

Results

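The laminin and integrin genes of zebrafish (Danio rerio) were examined in whole embryos at 30 hours post fertilisation (hpf), in wild types and in 3etv mutants. Members were the rows of the gene count table whose symbol names a laminin alpha, beta or gamma chain or an integrin alpha or beta chain. The symbol rule picked 47 of 32057 rows: 13 laminin chain genes, 33 integrin chain genes and itgb1bp1, which encodes a protein that binds the tail of integrin beta 1 and is no chain. The chain genes divide into 5 laminin alpha, 5 laminin beta, 3 laminin gamma, 21 integrin alpha and 12 integrin beta genes.

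Each group held 3 single embryos, each sequenced as its own poly-A library. The wild types carry the genotype label WT and the mutants the label 3etv, and the series title calls the mutants Pea3 triple mutants; the Pea3 group are ETS transcription factors that act downstream of fibroblast growth factor signalling. The labels name neither the mutated genes and alleles nor the strain, clutch or parents, so a family difference cannot be told apart from genotype, and p-values measure the spread between these embryos. Levels are given as CPM, which are counts divided by the library total and the TMM factor of edgeR for library composition and set to a common scale, and calls were repeated under up to 13 alternative settings, 6 of which each left out 1 embryo. As a check of the labels, etv5b was at 74.4, 73.0 and 76.6 CPM in the wild-type embryos and 28.7, 28.1 and 31.5 CPM in the mutants, a log2 change (log2 of the ratio of mutants to wild types) of -1.34 ± 0.0876 (SE; quasi-likelihood test of edgeR with Benjamini-Hochberg adjustment, edgeR adjusted p = 1.27e-06). The other Pea3 transcripts etv5a and etv4 changed by -1.01 and -0.48 on the log2 scale (edgeR adjusted p = 1.82e-05 and 0.00923). The libraries held from 17570505 to 25512862 counts in genes, and every mutant library was shallower than every wild-type library. Markers of skeletal muscle, epidermis, notochord, endothelium, neural tissue and erythroid cells were detected in every embryo.

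Laminins are secreted heterotrimers of an alpha, a beta and a gamma chain that polymerise into the sheet on which basement membranes are built. Integrins are transmembrane heterodimers of an alpha and a beta chain that bind laminins, fibronectin, collagens and other matrix proteins outside the cell and connect to actin or keratin filaments inside it. In zebrafish, lama1, lamb1a and lamc1 are needed for the notochord, lama2 for the attachment of muscle fibres, and itga5 for the somite boundaries. In the following, laminins are treated as the ligand chains and integrins as the receptor chains.

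More of the chain genes were lower in mutants than higher, in both families. Of the 12 laminin genes that passed the filter on low counts, 6 fell and 1 rose, and of 27 integrin genes, 10 fell and 3 rose (edgeR quasi-likelihood test, adjusted p under 0.05 over all genes). The largest reductions among chains whose mean count was 50 or more were those of itgb3a, itgb1b.1, itgav, itgb1b and lama2, each with a log2 change between -1.29 and -1.07, and the largest called rise was that of the low-count itga6l. As the background, 5179 of 19889 tested genes (26.0%) were called in either direction, 13.5% lower and 12.6% higher. The share of tested integrins called lower was 37.0%, and the share called higher was 11.1%, with 8.33% of laminins called higher. The median log2 change was -0.29 over the laminins and -0.38 over the integrins, against -0.0068 over all tested genes. Without the third mutant the medians were -0.19 over the laminins and -0.23 over the integrins, and with no low-count filter that of the laminins was -0.18. The order of the 2 families was not stable. With a mean of at least 50 counts the medians were -0.40 over the laminins and -0.38 over the integrins, and without the first mutant both were -0.34. The difference between ligand and receptor chains was not tested. With library totals in place of TMM scaling, 1720 genes of the table were called higher and 3311 lower, against 2502 and 2677 with TMM, and the chains gave 16 lower and 2 higher. In bulk RNA of whole embryos, fewer cells of a type and less RNA per cell cannot be told apart.

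**Figure D1:**
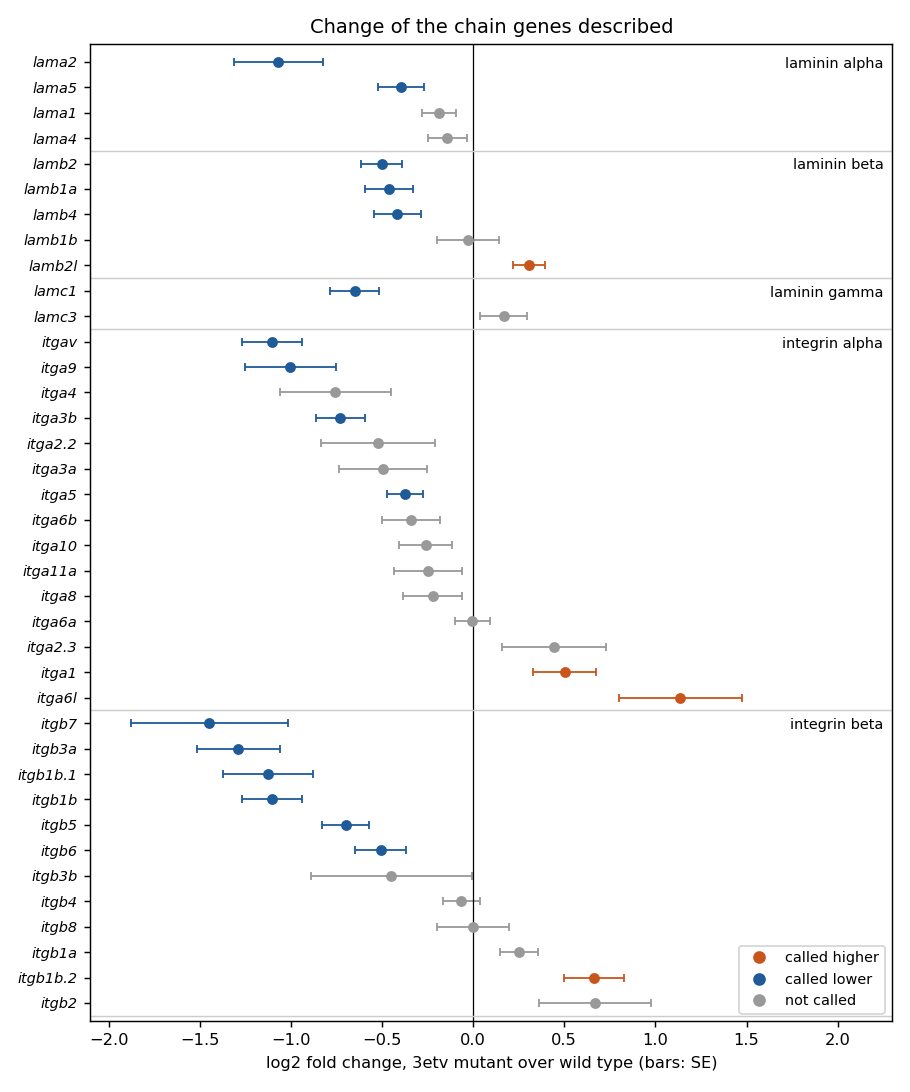
Log2 changes (3etv mutant over wild type, x axis) with their SE for the chain genes described here that passed the filter, ordered by chain class and by size of change. The 16 genes called lower lie left of the zero line in all classes, the 4 called higher are lamb2l, itga1, itga6l and itgb1b.2, and the low-count itgb7 has a wide bar.

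Summed over each family, the transcript level was lower in every mutant than in every wild type. The laminin chains together had 818, 973 and 1016 CPM in the wild types and 786, 769 and 646 CPM in the mutants. For the integrin chains the sums were 539, 693 and 652 CPM in the wild types and 502, 533 and 452 CPM in the mutants. The mutant mean was 0.784 times the wild-type mean for laminins and 0.789 times for integrins. These sums are CPM that are not divided by transcript length, so long or abundant transcripts such as lamc1 dominate them. The ranges of single tested chains did not overlap between the groups in 25 of 39 genes, with all mutants below in 18 and all above in 7; over all tested genes the mutants lay all below in 21.2% and all above in 21.7%.

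Among the laminin alpha chains, lama2 (ENSDARG00000099390), the alpha chain of muscle basement membrane, had the largest change. It was at 10.4, 14.8 and 18.6 CPM in the wild-type embryos and 9.03, 7.36 and 4.47 CPM in the mutants. The groups did not overlap, the first wild type was nearest to the mutants, and the third mutant was lowest. The log2 change was -1.07 ± 0.243 (SE; edgeR adjusted p = 0.00715), and the gene stayed called in all 13 alternatives. The transcript of lama5 (ENSDARG00000058543), a chain of the epidermal basement membrane that zebrafish need in the fin fold, was at 110.3, 126 and 154 CPM in the wild-type embryos and 105, 108 and 83.6 CPM in the mutants. Its log2 change was -0.40 ± 0.128 (edgeR adjusted p = 0.0379), with the lowest wild type just above the highest mutant. That call was kept only when the first wild type was the embryo left out; without any of the others the edgeR adjusted p lay between 0.0522 and 0.170, and over its 13 alternatives it ran from 0.0130 to 0.170. Without the third wild type the log2 change was -0.26.

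The other alpha chains showed smaller differences. For lama1 (ENSDARG00000102277), the chain of the early embryonic and notochord laminin, the level was 111 ± 3.12 CPM in the wild-type group and 97.2 ± 10.4 CPM in the mutant group (SD, n = 3). The log2 change of -0.18 ± 0.0931 was not called (edgeR adjusted p = 0.161), and the first mutant lay within the wild-type range. The vascular and muscle chain lama4 was at 57.1 ± 5.72 CPM in the wild-type group and 51.7 ± 5.96 CPM in the mutant group, a log2 change of -0.14 ± 0.106 that was not called either (edgeR adjusted p = 0.347). The epithelial chain lama3 was near the detection limit, with 3 or 4 counts in each wild type and from 5 to 8 in the mutants, and did not pass the filter.

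The laminin beta genes did not all move in the same direction. The gene lamb2 (ENSDARG00000002084), which in zebrafish contributes to the notochord sheath, was at 95.5, 109.6 and 117 CPM in the wild-type embryos and 74.2, 87.6 and 65.7 CPM in the mutants. Its ranges did not overlap, and its log2 change was -0.50 ± 0.113 (edgeR adjusted p = 0.00685). The neighbouring paralog lamb2l (ENSDARG00000033950) was at 79.5, 85.9 and 76.0 CPM in the wild-type embryos and 107, 98.2 and 93.7 CPM in the mutants. Here every mutant lay above every wild type, with a log2 change of 0.31 ± 0.0885 (edgeR adjusted p = 0.0235). The lamb2l call was lost with library totals (edgeR adjusted p = 0.0877) and without the first or the third wild type or the first or the second mutant (from 0.0526 to 0.0922); the direction held in all 13 alternatives, with log2 changes from 0.23 to 0.36 and adjusted p from 0.0158 to 0.0922.

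As a share of the counts of both genes, lamb2l took 45.4, 43.9 and 39.4% in wild type and 58.9, 52.9 and 58.8% in mutants. The mean share was 42.9 ± 3.14% in wild type and 56.9 ± 3.45% in mutants (SD, n = 3), and the groups did not overlap (exact permutation test, two-sided, p = 0.1, the smallest that 3 against 3 allows). Since lamb2 was lower and lamb2l higher in every mutant, this separation was fixed by the levels above. The share is therefore a description and adds no support to the calls. It is a share of reads and not of molecules, because the counts were not divided by transcript length.

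The other neighbouring beta pair, lamb1a and lamb4, was lower in mutants for both genes. For lamb1a (ENSDARG00000101209), the beta chain of the notochord laminin, the levels were 95.5, 98.1 and 129.6 CPM in the wild-type embryos and 91.6, 73.7 and 69.4 CPM in the mutants. The lowest wild type was only slightly above the highest mutant, and the log2 change was -0.46 ± 0.131 (edgeR adjusted p = 0.0220). Its call was lost without the third wild type, the second mutant or the third mutant (edgeR adjusted p = 0.103, 0.0842 and 0.0955; from 0.00487 to 0.103 over 13 alternatives). The gene lamb4 was at 40.7 ± 8.04 CPM in the wild-type group and 30.5 ± 2.13 CPM in the mutant group, a log2 change of -0.42 ± 0.130 (edgeR adjusted p = 0.0327). That call held only when the first wild type was the embryo left out, with adjusted p from 0.00802 to 0.121 over its 13 alternatives, and without the second wild type the log2 change was -0.25. The second lamb1 paralog, lamb1b, was at 17.9 ± 4.97 CPM in the wild-type group and 17.6 ± 0.865 CPM in the mutant group and was not called (edgeR adjusted p = 0.920).

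Of the gamma chains, lamc1 (ENSDARG00000036279), which is shared by most laminin trimers, was lower in mutants. It was at 209.5, 290.1 and 278 CPM in the wild-type embryos and 181, 178 and 137 CPM in the mutants, so that the groups did not overlap. The log2 change was -0.65 ± 0.134 (edgeR adjusted p = 0.00416) and it was called in all 13 alternatives. The gene lamc3 was at 9.60 ± 0.637 CPM in the wild-type group and 10.8 ± 0.250 CPM in the mutant group and was not called (log2 change 0.17 ± 0.129, edgeR adjusted p = 0.365), although every mutant lay above every wild type.

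**Figure D2:**
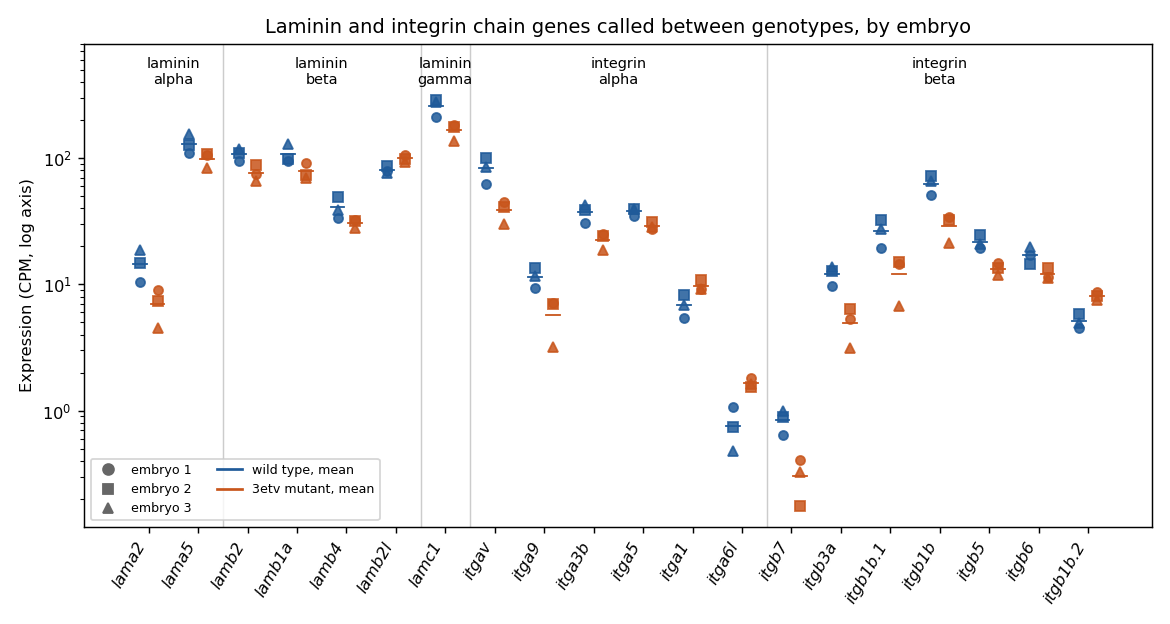
Expression in CPM (log axis) of the 20 chain genes called between genotypes, with 1 point per embryo (blue, wild type; orange, 3etv mutant; marker shape, embryo number) and a line at each group mean. The wild-type and mutant points do not overlap for any of the 20 genes. These were picked by their calls between the same embryos, so the gap adds no support to the calls. Over all tested genes the ranges did not overlap in 42.9%. The triangle of the third mutant is the lowest point for most of the genes that were lower.

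The integrin beta 1 genes, whose product pairs with most of the alpha chains, split between their copies. The gene itgb1b (ENSDARG00000104484) was at 50.5, 71.8 and 65.2 CPM in the wild-type embryos and 33.9, 32.03 and 21.4 CPM in the mutants. Its neighbour itgb1b.1 (ENSDARG00000053232) was at 19.4, 32.4 and 27.3 CPM in the wild-type embryos and 14.4, 15.1 and 6.76 CPM in the mutants. Both were lower in all mutants, with log2 changes of -1.10 ± 0.163 and -1.13 ± 0.247 (edgeR adjusted p = 0.000564 and 0.00579), and both were called in all 13 alternatives. The gene itgb1b.2 (ENSDARG00000022689), which lies between the other two in the RefSeq table of assembly GRCz12tu, was at 4.51, 5.83 and 4.93 CPM in the wild-type embryos and 8.62, 8.13 and 7.47 CPM in the mutants. It moved in the opposite direction, with a log2 change of 0.66 ± 0.162 (edgeR adjusted p = 0.0105), and was called in all 13 alternatives. The gene itgb1a, on another chromosome, was at 84.4, 109.6 and 105 CPM in the wild-type embryos and 111, 126 and 119 CPM in the mutants. Every mutant was above every wild type, but the log2 change of 0.25 ± 0.104 was not called (edgeR adjusted p = 0.0926).

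Of the counts of these 4 genes, itgb1a took 53.1, 49.9 and 51.8% in wild type and 66.1, 69.4 and 76.9% in mutants. The share of itgb1b was 31.8, 32.7 and 32.3% in wild type and 20.2, 17.7 and 13.8% in mutants. The share of itgb1b.1 was 13.5 ± 1.26% in wild type and 7.10 ± 2.36% in mutants and that of itgb1b.2 was 2.64 ± 0.200% in wild type and 4.82 ± 0.316% in mutants (SD, n = 3). None of the 4 shares overlapped between the groups, and each gave p = 0.1 in an exact two-sided permutation test, the smallest that 3 against 3 allows. The shares depend on one another and on levels already seen to separate the groups, so they are not 4 separate outcomes and add no support to the calls. A share also rises when the other genes fall, and itgb1a itself was not called. The third mutant had the highest share of itgb1a and the lowest shares of itgb1b and itgb1b.1. Reads with several alignments were tallied in a summary line that was left out. How reads that match more than 1 of these copies affect their levels was not tested. The protein gene itgb1bp1, whose product binds the beta 1 tail, was at 11.2 ± 0.967 CPM in the wild-type group and 14.3 ± 1.79 CPM in the mutant group and was not called (log2 change 0.35 ± 0.135, edgeR adjusted p = 0.0766; called without the first mutant, at 0.0435, with a range from 0.0435 to 0.237 over 13 alternatives).

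**Figure D3:**
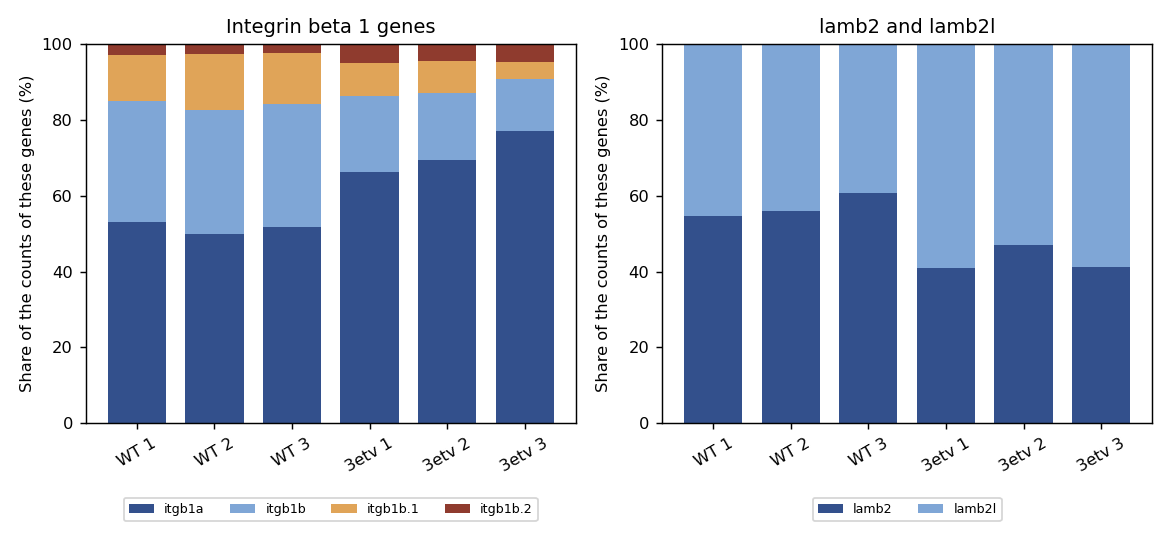
Share of counts in percent taken by each paralog in each embryo, for the 4 integrin beta 1 genes (left) and for lamb2 and lamb2l (right), stacked to 100. In all 3 mutants itgb1a and lamb2l take a larger part and itgb1b, itgb1b.1 and lamb2 a smaller part than in any wild type.

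The chains of the alpha V integrins, which bind vitronectin, fibronectin and the latent form of TGF-beta, included 4 genes that fell: itgav, itgb3a, itgb5 and itgb6. The gene itgav (ENSDARG00000006314) was at 62.8, 100.2 and 85.5 CPM in the wild-type embryos and 44.6, 40.9 and 30.3 CPM in the mutants. The groups were well apart, with a log2 change of -1.10 ± 0.166 (edgeR adjusted p = 0.000614). Its partner gene itgb3a (ENSDARG00000056767) was at 9.66, 12.6 and 13.8 CPM in the wild-type embryos and 5.35, 6.36 and 3.11 CPM in the mutants, a log2 change of -1.29 ± 0.225 (edgeR adjusted p = 0.00159). For the partner itgb5 (ENSDARG00000012942) the levels were 19.3, 24.6 and 20.8 CPM in the wild-type embryos and 14.7, 13.4 and 11.8 CPM in the mutants, a log2 change of -0.70 ± 0.129 (edgeR adjusted p = 0.00224). These 3 genes were called in all 13 alternatives. The epithelial partner itgb6 was at 17.1 ± 2.64 CPM in the wild-type group and 12.03 ± 1.22 CPM in the mutant group, with a log2 change of -0.51 ± 0.140 (edgeR adjusted p = 0.0190). Its call was lost without the third wild type (0.0911), the first mutant (0.0599) or the third mutant (0.0695), and the adjusted p ran from 0.00938 to 0.0911 over its 13 alternatives. Apart from the beta 1 genes given above, the remaining partners were not called. The gene itgb8 was at 3.64 ± 0.477 CPM in the wild-type group and 3.63 ± 0.360 CPM in the mutant group (edgeR adjusted p = 0.996). The sparse itgb3b had from 13 to 35 counts per wild type and from 7 to 23 per mutant (edgeR adjusted p = 0.487).

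Among the alpha chains that pair with beta 1, itga9, itga3b and itga5 fell. The gene itga9 (ENSDARG00000032435), whose product binds tenascin and related ligands, was at 9.38, 13.5 and 11.7 CPM in the wild-type embryos and 7.16, 6.95 and 3.16 CPM in the mutants. Its log2 change was -1.002 ± 0.248 (edgeR adjusted p = 0.0111), and the third mutant was lowest, well below the others. The gene itga3b (ENSDARG00000012824) encodes a laminin receptor chain that zebrafish need in the fin fold, and it was at 30.9, 38.5 and 42.4 CPM in the wild-type embryos and 24.8, 23.9 and 18.8 CPM in the mutants. The log2 change was -0.73 ± 0.135 (edgeR adjusted p = 0.00233); both itga9 and itga3b were called in all 13 alternatives. The fibronectin receptor chain itga5 (ENSDARG00000006353) was at 34.7, 39.5 and 39.3 CPM in the wild-type embryos and 27.6, 31.4 and 28.5 CPM in the mutants. Its smaller log2 change of -0.38 ± 0.0974 (edgeR adjusted p = 0.0142) lost its call without the third wild type, the first mutant or the third mutant (edgeR adjusted p = 0.0557, 0.0576 and 0.0510; from 0.00779 to 0.0576 over 13 alternatives).

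Both alpha chains that rose lost their call in several alternatives. The gene itga1, a collagen receptor chain, was at 5.43, 8.20 and 6.83 CPM in the wild-type embryos and 9.13, 10.8 and 9.10 CPM in the mutants, a log2 change of 0.50 ± 0.171 (edgeR adjusted p = 0.0468). Its call was kept without the second wild type but lost without any other embryo, with library totals and with a minimum mean of 50 counts, and the adjusted p ran from 0.0226 to 0.150 over 13 alternatives. The gene itga6l had 23, 19 and 11 counts in wild types and 36, 26 and 30 in mutants, a log2 change of 1.14 ± 0.339 (edgeR adjusted p = 0.0267). It kept its call without the first wild type and lost it without any other embryo (adjusted p from 0.0171 to 0.101 over 12 alternatives).

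The remaining alpha chains that passed the filter were not called. The laminin receptor gene itga6a was at 49.4 ± 4.57 CPM in the wild-type group and 49.2 ± 2.78 CPM in the mutant group, the closest of all alpha chains to no difference (log2 change -0.005 ± 0.0952, edgeR adjusted p = 0.978). Its paralog itga6b was at 28.5 ± 6.70 CPM in the wild-type group and 22.5 ± 3.20 CPM in the mutant group (log2 change -0.34 ± 0.159, edgeR adjusted p = 0.129), and without the first wild type it was called, at 0.0191 (range over 13 alternatives from 0.0191 to 0.456). For itga4, a receptor chain for fibronectin and VCAM, the level was 8.91 ± 2.78 CPM in the wild-type group and 5.27 ± 2.33 CPM in the mutant group. Its log2 change of -0.76 ± 0.304 (edgeR adjusted p = 0.0837) was called without the first wild type (0.0324), without the first mutant (0.0477) and with no low-count filter (0.0245), and the adjusted p ran from 0.0245 to 0.289 over 13 alternatives. The other collagen receptor chains itga10, itga11a, itga2.2 and itga2.3 had log2 changes of -0.26, -0.25, -0.52 and 0.44. For itga3a and itga8 the log2 changes were -0.49 and -0.22, and the edgeR adjusted p of these 6 genes was 0.149 or more.

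The hemidesmosome chain itgb4, which pairs with alpha 6 in basal epidermis, was at 74.7, 88.3 and 74.3 CPM in the wild-type embryos and 74.2, 83.5 and 69.2 CPM in the mutants. These ranges overlapped, with a log2 change of -0.07 ± 0.101 (edgeR adjusted p = 0.674). The leukocyte chain itgb2 had from 16 to 33 counts per wild type and from 27 to 33 per mutant, which is 0.736, 1.28 and 1.04 CPM in the wild-type embryos and 1.51, 1.59 and 1.80 CPM in the mutants. Every mutant was above every wild type in CPM, but the log2 change of 0.67 ± 0.305 was not called (edgeR adjusted p = 0.123). For the lymphocyte chain itgb7, counts fell from 14, 23 and 23 in wild types to 8, 3 and 6 in mutants, a log2 change of -1.45 ± 0.429 (edgeR adjusted p = 0.0263). This call was lost with the DESeq2 Wald test (adjusted p = 0.0760) and without the second or the third embryo of either group (0.0703, 0.0906, 0.105 and 0.0686 in edgeR), with a range from 0.0237 to 0.105 over 12 alternatives.

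The 6 integrin alpha rows that did not pass the filter held at most 14 counts in any library. The collagen receptor genes itga11b and itga2.1 had from 6 to 12 and from 0 to 2 counts. The thrombocyte chain itga2b had 3, 4 and 0 counts in wild types and 9, 3 and 6 in mutants. The leukocyte chains itgam and itgae.1 had from 2 to 8 and from 1 to 14 counts, and itgae.2 had 2, 4 and 6 in wild types and 8, 9 and 9 in mutants. In CPM every mutant was above every wild type for itga2b and itgae.2, and the ranges of the other rows overlapped. These rows were not tested, and at these depths no difference is claimed.

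The chains that were lower shared an order among the embryos. In 15 of the 16 chains called lower, the first wild type had the lowest CPM of the wild types, and in 14 of 16 the third mutant had the lowest of the mutants. Over all 2677 genes called lower, these shares were 51.4% and 54.5%. The exception among wild types was itgb6, lowest in the second, and those among mutants were itga5, lowest in the first, and itgb7, lowest in the second. Counts of called chains moved with the embryos used. Laminin genes called lower numbered 3 without the third wild type, the second mutant or the third mutant, against 6 with all embryos, and integrin genes called lower numbered from 7 to 12 when an embryo was left out. Laminin genes called higher numbered from 0 to 2 and integrin genes called higher from 1 to 2 when an embryo was left out; the integrin count was 1 without the third wild type or without any mutant.

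Other basement membrane genes were then counted, because laminin networks are tied to collagen IV by nidogen and perlecan. Of 29 tested rows of this list, 17 fell and 1 rose, with a median log2 change of -0.43. That is 58.6% lower and 3.45% higher, against 13.5% lower and 12.6% higher over all tested genes. This list and those that follow were chosen with earlier results of these data known, so their shares are descriptions and not tests. The perlecan gene hspg2 was at 62.0, 92.3 and 96.7 CPM in the wild-type embryos and 50.3, 48.2 and 26.9 CPM in the mutants, a log2 change of -1.001 ± 0.207 (edgeR adjusted p = 0.00420). The gene tinagl1, whose product binds basement membrane and integrins, was at 16.9 ± 3.96 CPM in the wild-type group and 7.07 ± 3.41 CPM in the mutant group, a log2 change of -1.25 ± 0.285 (edgeR adjusted p = 0.00710). The single rise was the low-count col18a1b, with a log2 change of 1.30 ± 0.349 (edgeR adjusted p = 0.0164), whose call was lost without the first wild type, the third wild type or the first mutant (0.0516, 0.0503 and 0.0599; range from 0.0104 to 0.0599 over 12 alternatives). Agrin (agrn) and sparc were not called (edgeR adjusted p = 0.200 and 0.120). Without the third wild type, 11 genes of this list were called lower.

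Among the non-laminin ligands of integrins was the largest rise of any gene in these lists. The fibronectin gene fn1b was at 27.9, 32.7 and 29.2 CPM in the wild-type embryos and 189.6, 202 and 119 CPM in the mutants. The lowest mutant was well above the highest wild type, with a log2 change of 2.51 ± 0.168 (edgeR adjusted p = 1.45e-06). The paralog fn1a was at 65.8 ± 5.43 CPM in the wild-type group and 57.6 ± 2.75 CPM in the mutant group and was not called (edgeR adjusted p = 0.135). Of the 25 tested genes of this list 8 fell and 2 rose, with a median log2 change of -0.31 (-0.19 over the 29 genes tested with no low-count filter). The share called lower was 32% and that called higher 8%, against 13.5% and 12.6% over all tested genes. The thrombospondin gene thbs4b, expressed at muscle attachments, changed by -1.01 ± 0.145, and the fibrinogen gene fgg by -1.26 ± 0.270 (edgeR adjusted p = 0.000471 and 0.00519).

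Inside the cell, integrin tails are bound by talins, kindlins, the ILK complex and focal adhesion kinases. Of 36 tested genes of this list 18 fell and 3 rose, with a median log2 change of -0.37. That is 50% lower and 8.33% higher, against 13.5% lower and 12.6% higher over all tested genes. The kindlin gene fermt2 was at 30.3, 38.3 and 34.9 CPM in the wild-type embryos and 21.9, 18.3 and 11.6 CPM in the mutants, a log2 change of -0.999 ± 0.1801 (edgeR adjusted p = 0.00192). The largest change was that of the kinase gene ptk2ba, from 5.56, 2.84 and 4.49 CPM in wild types to 0.706, 0.412 and 0.927 CPM in mutants, a log2 change of -2.63 ± 0.342 (edgeR adjusted p = 0.000231). The parvin gene parvg changed by -1.04 ± 0.285 (edgeR adjusted p = 0.0180) and lost its call without the first wild type, the second mutant or the third mutant (0.0709, 0.0534 and 0.0509; range from 0.00957 to 0.0709 over 12 alternatives). The focal adhesion kinase genes ptk2aa and ptk2ab were not called (edgeR adjusted p = 0.717 and 0.632). Without the third wild type or the third mutant, 10 genes of this list were called lower, and without the third mutant the median was -0.23.

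Dystroglycan is the main laminin receptor outside the integrins, and its gene dag1 was not called, at 289.8 ± 26.6 CPM in the wild-type group and 255 ± 13.6 CPM in the mutant group (log2 change -0.18 ± 0.0943, edgeR adjusted p = 0.172). In the list of dystroglycan partners, its glycosylation enzymes and other laminin receptors, 8 of 23 tested genes fell and 2 rose, with a median log2 change of -0.18. The share called lower was 34.8% and that called higher 8.70%, against 13.5% and 12.6% over all tested genes. The laminin receptor gene bcam was at 52.7, 65.9 and 42.7 CPM in the wild-type embryos and 22.1, 22.2 and 14.5 CPM in the mutants, a log2 change of -1.46 ± 0.174 (edgeR adjusted p = 0.000134). The sarcoglycan genes sgcd and sgcg changed by -1.10 ± 0.179 and -1.02 ± 0.200 (edgeR adjusted p = 0.00104 and 0.00319). The rises include rpsa, which is listed as a laminin-binding protein but encodes a ribosomal protein. No gene of this list was called higher without the second or the third mutant, and 1 was without the second or the third wild type or the first mutant, with library totals, with no low-count filter, in the DESeq2 Wald test and with the title number as a block. Without the third wild type or the third mutant, 5 genes of this list were called lower.

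**Figure D4:**
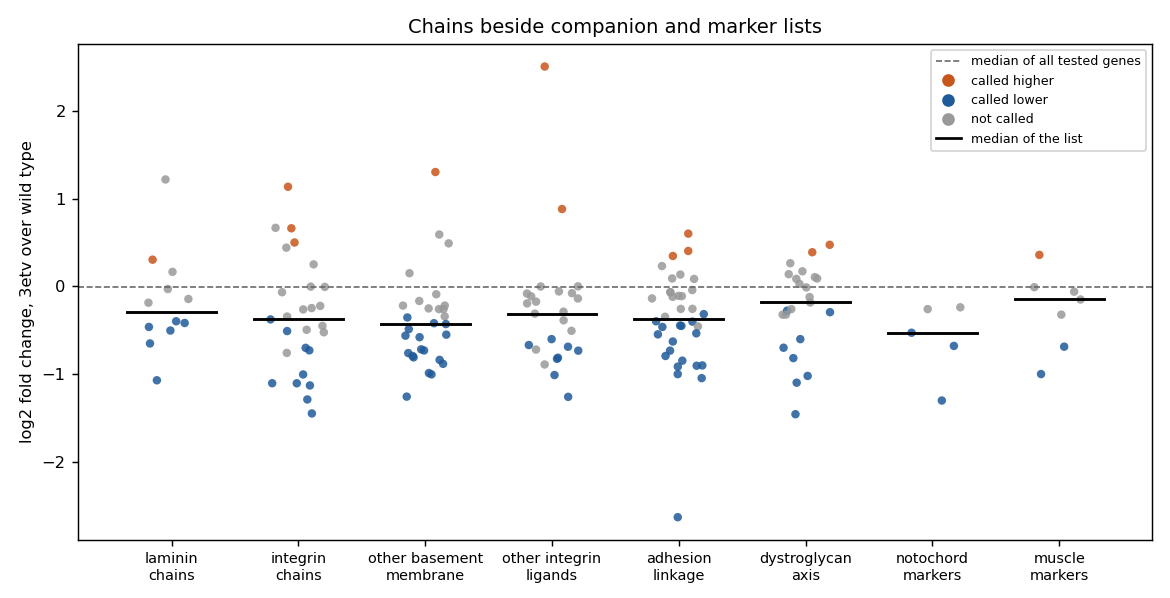
Log2 changes (3etv mutant over wild type, y axis) of the tested genes of both families, the 4 companion lists and the notochord and muscle markers, 1 point per gene, with the median of each list as a black line and the median of all tested genes as a dashed line. The median of each group shown lies below the dashed line, and fn1b is the highest point. Marker lists that are not drawn had medians above that line for neural (0.19), erythroid (0.22) and myeloid (0.014) markers. Their medians lay below it for epidermal (-0.22), endothelial (-0.23) and thrombocyte (-0.19) markers.

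Markers of tissues that carry these chains were measured beside them. Over all tested genes 13.5% were called lower and 12.6% higher, and several of these short lists lay near those shares. Of the epidermal markers 14.3% were lower and 14.3% higher, of the endothelial markers 16.7% were lower, and of the neural markers 16.7% were higher. Of 5 notochord markers 3 fell and none rose, and their summed level ran from 1763 to 2184 CPM over the wild types and from 1502 to 1712 CPM in the mutants. Of 7 skeletal muscle markers 2 fell and 1 rose, with sums from 8445 to 9688 CPM over the wild types and from 7572 to 9367 CPM in the mutants, and of 7 epidermal markers 1 fell and 1 rose, with sums from 14158 to 15866 CPM over the wild types and from 14368 to 15504 CPM in the mutants. Of the 6 endothelial markers that the table holds, tie1 alone fell, with sums from 90.3 to 121 CPM over the wild types and from 91.9 to 96.5 CPM in the mutants. None of 7 myeloid markers was called, with sums from 26.1 to 30.9 CPM over the wild types and from 25.2 to 26.9 CPM in the mutants, and of the 4 thrombocyte markers that it holds, 2 were tested and not called, with sums from 5.59 to 6.27 CPM over the wild types and from 5.04 to 6.01 CPM in the mutants. The muscle rise was lost with library totals and without the first wild type, the second mutant or the third mutant, the epidermal rise with library totals and without the second wild type, the second mutant or the third mutant, and the call of tie1 without the second or the third wild type or the first or the second mutant. With library totals or without the first wild type, 2 endothelial markers were called lower, and epidermal markers called lower numbered up to 3 over the alternatives, with 3 without the first wild type. The median log2 change was -0.53 over the notochord, 0.19 over the neural and 0.22 over the erythroid markers. Of 6 neural markers 1 rose and of 6 erythroid markers 2 rose, with neural sums from 1223 to 1385 CPM over the wild types and from 1454 to 1577 CPM in the mutants and erythroid sums from 326 to 443 CPM over the wild types and from 457 to 525 CPM in the mutants. No marker row was at 0 in all embryos. The notochord sums separated the groups in the same direction as the laminin and integrin sums, and the neural and erythroid sums separated them in the opposite direction. Ranges of single tested genes did not overlap in 42.9%. In wild types the uncalled col2a1a made 1653 of 1982 CPM of the mean notochord sum, and hbae3, whose ranges overlapped, 215 of 403 CPM of the erythroid sum. Likewise in wild types, the uncalled krt4 made 11830 of 15034 CPM of the mean epidermal sum. The uncalled elavl3, whose ranges overlapped, made 632 of 1317 CPM of the mean neural sum in wild types. The uncalled mylpfa made 3628 of 9246 CPM of the muscle sum, so these sums say little about the other markers. Notochord markers called lower numbered 2 without the second or the third wild type or the third mutant, and 4 with library totals. The part of these tissues in the chain results was not tested.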

How the data were processed

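Poly-A, strand-specific libraries of 6 single embryos were made, per the labels' protocols. The authors deposited unnormalised counts of reads for each Ensembl gene, and the submitters' processing notes name STAR, HTSeq and the build GRCz11 with no versions; the annotation release and strand setting are not given in the sources used here. Its header has a space for a tab between the names of 2 mutant columns; split there, all 6 column names match sample titles. Summary lines for reads in no gene, in several or with several alignments, 60.1% to 61.1% of each column, were left out. Overlapping, antisense and near-identical genes are therefore uncertain, including the itgb1b copies.

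Counts were filtered with filterByExpr, scaled with TMM factors and compared by genotype with edgeR's quasi-likelihood test (edgeR 4.0.16, R 4.3.3), with Benjamini-Hochberg adjustment over all 19889 tested genes and a threshold of 0.05. CPM are these counts scaled to the library total times its TMM factor. SE is the log2 fold change over the square root of F, and n is 3 embryos per group. A floor of 3 counts is between 0.118 and 0.171 CPM per library, and counts carry no molecular identifiers. No transcript lengths were used, so shares and sums over different genes compare reads and not molecules. Within groups, every pair of libraries differed by more than sampling noise. The chi-square per degree of freedom was 20.1, 37.6 and 49 for the wild-type pairs and 6.32, 9.56 and 6.48 for the mutant pairs. Neighbouring genes were read from the RefSeq table of GRCz12tu, in which 44 of 47 member symbols matched.

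The members and lists were chosen with earlier results of these data known. All members were to be named or counted, and up to 3 called genes of each of the 4 companion lists, those with the largest change; other genes of those lists (agrn, sparc, fn1a, ptk2aa, ptk2ab, dag1, rpsa) were named after their values were seen. Values of some genes that the counts include are not reported here. Alternatives were DESeq2 size factors, library totals, no filter, a mean of at least 50 counts, the Wald test of DESeq2 1.42.0, voom in limma 3.58.1, the title number as a block, and each embryo left out. The code was tested on simulated data.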

Additional observations from a re-analysis of the deposited data

How the results depend on the processing

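Leaving out an embryo moved the counts most: all genes called higher ran from 1643 to 2266 and lower from 1787 to 2572, laminins higher from 0 to 2 and lower from 3 to 6, and integrins higher from 1 to 2 and lower from 7 to 12. With library totals 0 laminins were higher, and with a mean of at least 50 counts 1 integrin was higher, since itga6l was not tested there and itga1 lost its call (edgeR adjusted p = 0.0510). Of the 16 chains called lower, 10 kept their call in every alternative run for them (itgav, itga9, itga3b, itgb3a, itgb1b.1, itgb1b, itgb5, lama2, lamb2 and lamc1), and of the 4 called higher, itgb1b.2 did. Of 20 uncalled members, 15 of 257 alternative values changed sign: without an embryo, itga6a reached from -0.074 to 0.061, itgb4 from -0.13 to 0.019, itgb8 from -0.076 to 0.10 and lamb1b from -0.23 to 0.17. In other settings itgb8 changed sign with DESeq2 size factors (0.0012), the DESeq2 Wald test (0.00064) and limma-voom (0.010), and lamb1b with limma-voom (0.0020) and the block (0.0065). The cause was not tested.

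The numbers in the sample titles recur in both groups but mark different embryos, and the deviations of same-numbered embryos correlated at -0.0694, 0.0856 and -0.111. With this replicate block 2226 genes were higher and 2496 lower, laminins gave 1 higher and 5 lower and integrins 3 higher and 10 lower; lama5 was then not called (edgeR adjusted p = 0.0588). Depth limits itgb7, itga6l and the 7 untested chains.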
